A study of Homo sapiens with 2 samples.

Results

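The genes described here encode 10 surface or secreted proteins with which tumour cells restrain, or in the case of ICOSLG stimulate, immune cells. They were chosen by name: CD274, PDCD1LG2, CD276, VTCN1, ICOSLG, PVR, NECTIN2, CD47, LGALS9 and NT5E, 10 of the 19970 protein-coding genes annotated on chromosomes 1 to 22 and X. For each gene, every KDM1B peak was collected whose midpoint lay inside the gene or at most 5 kb outside it. The peaks came from the breast cancer cell line MDA-MB-231, which is triple negative, stably carrying KDM1B with a 3xFLAG tag from the retroviral vector pOZ. The ChIP group was 1 library precipitated with an anti-FLAG M2 antibody, and the input group was 1 library from the same tagged cells, so both groups shared the transgene and no untagged cells were among them. With 1 library in each of the 2 groups there is no replicate error and no test of ChIP over input, and all comparisons below are descriptions of 1 deposited peak list. Read depth is unknown, and a peak list cannot be used to check the identity of the cells against marker expression.

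Checkpoint ligands act on receptors of T cells, NK cells and macrophages. CD274 (PD-L1) and PDCD1LG2 (PD-L2) bind the inhibitory receptor PD-1, and CD276 (B7-H3), VTCN1 (B7-H4) and ICOSLG, the ligand of the costimulatory receptor ICOS, belong with them to the B7 family. PVR (CD155) and NECTIN2 (CD112) are nectin-type adhesion molecules that bind TIGIT and CD226. CD47 signals to SIRPA on macrophages to limit phagocytosis, the galectin LGALS9 binds HAVCR2 (TIM-3), and NT5E (CD73) is the ectoenzyme that makes adenosine from AMP. KDM1B (LSD2) is a flavin-dependent demethylase of histone H3 lysine 4 that has been described in the bodies of transcribed genes.

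KDM1B peaks were unevenly spread over these genes. PVR, NECTIN2 and NT5E together held 34 of the 40 peaks (85%), most of them inside the genes, while the other 7 genes held 6. In the 5 kb flanks lay 4 of the peaks of NECTIN2 and 1 of those of NT5E. CD47 had 3 peaks, CD274, ICOSLG and LGALS9 had 1 each, and PDCD1LG2, CD276 and VTCN1 had none. Thus 7 of the 10 genes had a peak, against 67.5% of all protein-coding genes, a share near that background. A count of 9 or more peaks, reached by PVR, NECTIN2 and NT5E, was found in 14.5% of protein-coding genes. The mark of 9 was set from the count of PVR, the lowest of these 3, and genes were not matched for length. By role, the 5 B7 family genes had 2 peaks over 202.6 kb of gene, with 0.778% of their span covered, the 2 nectin-type genes had 21 peaks over 65.2 kb with 29.1% covered, and NT5E had 13 peaks over 45.7 kb with 25.1% covered. Over all 10 genes 8.92% of the span lay under peaks, against 5.75% over all protein-coding genes. These 2 shares were not matched for gene length. Of the 33893 covered bases, 11399 lay in PVR, 7589 in NECTIN2 and 11491 in NT5E, so the share does not describe the other genes.

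**Figure D1:**
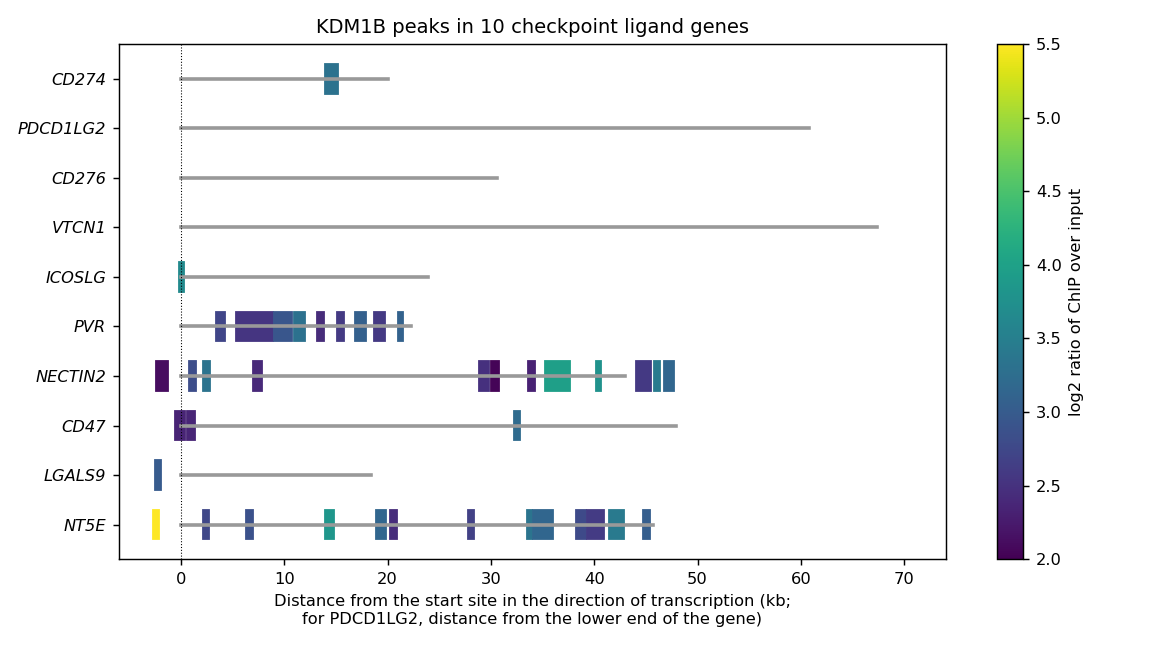
Peaks of the 10 genes, drawn to scale. Grey lines are the gene spans in kb from the start site in the direction of transcription (PDCD1LG2 from its lower coordinate), boxes are peaks and their colour is the log2 ratio of ChIP over input; 34 of the 40 boxes lie in or beside PVR, NECTIN2 and NT5E, and a box covers the start site at ICOSLG and CD47.

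Start-site sequence is shown for 4 of the genes: CD47 and ICOSLG, where a peak overlapped the promoter window, NT5E, where peaks ran along the gene but not over this window, and CD274, the gene of the main therapeutic target. The windows run from 250 bases before to 50 after the start site, from RefSeq on GRCh38.p14, 5′ to 3′ on the gene's strand, and 9 of the 10 genes have an entry (PDCD1LG2 has none). In the first 3, capitals mark CG dinucleotides. In CD274, capitals mark matches, on either strand, to TTCNNNGAA, the letters of STAT type motifs, and to GAAA followed by another GAAA after any 2 bases, the letters of interferon-response type motifs.
CD47 (chr3:108090982-108091281, minus strand): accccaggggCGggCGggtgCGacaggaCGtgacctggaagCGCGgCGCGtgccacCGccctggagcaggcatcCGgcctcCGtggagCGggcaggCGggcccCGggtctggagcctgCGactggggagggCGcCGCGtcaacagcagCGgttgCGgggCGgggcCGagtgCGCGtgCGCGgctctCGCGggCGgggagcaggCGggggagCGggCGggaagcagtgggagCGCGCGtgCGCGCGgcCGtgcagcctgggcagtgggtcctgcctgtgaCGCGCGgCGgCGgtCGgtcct
ICOSLG (chr21:44240894-44241193, minus strand): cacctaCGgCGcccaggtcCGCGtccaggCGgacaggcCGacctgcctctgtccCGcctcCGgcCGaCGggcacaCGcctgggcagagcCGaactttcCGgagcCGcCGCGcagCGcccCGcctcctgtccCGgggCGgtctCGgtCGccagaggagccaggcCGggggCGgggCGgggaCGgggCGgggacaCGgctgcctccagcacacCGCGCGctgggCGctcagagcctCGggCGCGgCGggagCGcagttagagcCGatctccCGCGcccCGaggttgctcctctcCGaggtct
NT5E (chr6:85449833-85450132, plus strand): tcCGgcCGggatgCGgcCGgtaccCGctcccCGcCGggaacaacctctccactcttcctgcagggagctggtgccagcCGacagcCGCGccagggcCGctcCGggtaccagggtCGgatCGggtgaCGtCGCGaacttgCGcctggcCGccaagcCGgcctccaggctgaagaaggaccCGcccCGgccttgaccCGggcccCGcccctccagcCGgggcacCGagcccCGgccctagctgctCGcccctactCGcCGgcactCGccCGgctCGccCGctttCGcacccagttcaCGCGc
CD274 (chr9:5450292-5450591, plus strand): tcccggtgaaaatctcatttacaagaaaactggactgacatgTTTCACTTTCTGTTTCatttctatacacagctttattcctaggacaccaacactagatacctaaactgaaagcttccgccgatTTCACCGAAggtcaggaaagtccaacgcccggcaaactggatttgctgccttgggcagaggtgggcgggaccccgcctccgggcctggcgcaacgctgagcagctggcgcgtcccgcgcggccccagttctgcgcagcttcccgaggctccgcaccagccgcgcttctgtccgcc

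The CD47 window held 45 CG dinucleotides, that of ICOSLG 42, that of NT5E 37 and that of CD274 22. Of the 22131 promoter windows of protein-coding genes, those with more than 30 CG dinucleotides overlapped a peak in 49.7% of cases and those with 5 or fewer in 4.04%, so a peak at a CG-dense start site was common in this list. Per gene, the window overlapped a peak in 34.4% of 15811 protein-coding genes with an entry, and in 2 of these 9. Windows with a CG count within 3 of that of NT5E overlapped a peak in 49.8% of cases, and those near the count of CD274 in 40.2%, but neither of these windows did. LGALS9, at the other extreme, had 2 CG dinucleotides and no peak in its window.

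In the CD274 window the match to TTCNNNGAA began 125 bases before the start site, and 2 overlapping matches to the spaced GAAA pair began 208 and 202 bases before it. Of all windows, 6.79% held TTCNNNGAA and 3.17% the spaced GAAA pair. Among the 9 genes with an entry only CD274 matched TTCNNNGAA, and CD274 and LGALS9 held the spaced GAAA pair. VTCN1 alone matched the AP-1 type letters TGANTCA (6.15% of windows), none matched CACGTG (8.34%), and 8 of the 9 held the NF-kB type letters GGG and CC with any 5 bases between them, as 66.6% of all windows did. A match is not a binding site, and the CD274 window carried no peak.

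Among the B7 family genes, CD274 had a single peak, deep in the gene. CD274 spans 20013 bp of chromosome 9 (5450542 to 5470554). Its peak (5464529 to 5465764, 1235 bp) was centred 14.6 kb after the start site, at a log2 ratio of ChIP over input of 3.32, a linear ratio of 9.96. This ratio was above that of 67.7% of all peaks, and the peak covered 6.17% of the gene. The same interval lies in the long noncoding RNA gene INCR1, which overlaps CD274, so the peak cannot be given to either gene alone.

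PDCD1LG2, 39.98 kb above CD274 on the same chromosome, had no peak in its 60.8 kb (5510531 to 5571282) or in the 5 kb on each side. Its nearest peak was the one in CD274, 44.8 kb below it, and the next lay 106.8 kb above it. CD276 (chromosome 15, 73683944 to 73714514) also had none, with the nearest peak 16.8 kb away. VTCN1 (chromosome 1, 117143587 to 117210927) had none either, with the nearest 21.4 kb away. CD276 and VTCN1 each had 23 peaks in the 500 kb on each side, 23.2 per Mb, fewer than the median of 43.4 around protein-coding genes. Of the 15 other protein-coding genes within 500 kb of CD276, 9 had a peak, up to 10 in 1 gene, and of the 8 near VTCN1, 5 had one, up to 15 in TTF2.

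ICOSLG had its only peak at the start site. The peak (chromosome 21, 44240601 to 44241101) was 500 bp wide, the smallest width in the list, was centred 92 bp after the start site and covered 208 of the 300 bases of the promoter window printed above. Its log2 ratio was 3.67, above 79.2% of all peaks but equal to the median of the 6637 peaks of this width, and the rest of the 23.96 kb gene was free of peaks. The genome holds a near-copy of this gene, LOC102723996, on the same chromosome (5022531 to 5046683). The 2 promoter windows share an identical stretch of 277 bases, and the copy had no peak in the gene or within 5 kb. The sources used here do not say how reads matching both places were handled, so the ratio at ICOSLG is uncertain.

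PVR was the most densely covered of the 10 genes. It spans 22.3 kb of chromosome 19 (44643910 to 44666162), and its 9 peaks covered 51.2% of it, with gaps of 24 to 1249 bp between neighbours. The start site itself was free: the first peak was centred 3.85 kb into the gene, at a log2 ratio of 2.71. The widest peak of all 10 genes, 3574 bp, followed at 7.16 kb with a ratio of 2.54, next to peaks at 9.88 kb (2.93) and 11.5 kb (3.30). Further along, the log2 ratios were 2.44 at 13.5 kb, 2.59 at 15.4 kb, 3.06 at 17.4 kb and 2.58 at 19.2 kb. The last peak, at 21.3 kb with 3.09, was centred 972 bp before the far end of the gene. PVR thus owed its gene-end peak to the far end and not to the start, and its ratios were modest, with a median of 2.71 against 2.99 over the whole list.

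NECTIN2, 180.1 kb above PVR on chromosome 19 (44846297 to 44889223, 42.9 kb), had 12 peaks, parted by 1 long gap. The first 4 began before the gene, with a peak centred 1.81 kb upstream of the start site (log2 ratio 2.11) and others at 1.13 kb (2.82), 2.46 kb (3.33) and 7.44 kb (2.40) inside it. After a stretch of 20.96 kb without peaks came 5 peaks, at 29.3 kb (2.49), 30.4 kb (2.03), 33.9 kb (2.32), 36.5 kb (3.96) and 40.4 kb (3.78). The peak at 36.5 kb, 2438 bp wide, had the second highest ratio among the 10 genes, and the one at 30.4 kb the lowest. Beyond the far end, 3 peaks were centred 44.8 kb (2.59), 46.1 kb (3.45) and 47.2 kb (3.14) from the start site. Of these, 2 lay inside the next gene, TOMM40, which encodes a channel of the mitochondrial outer membrane. Only 8 of the 12 peaks had their midpoint in NECTIN2 itself, and they covered 17.7% of it.

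CD47 had 2 of its 3 peaks at the start site, both below the median ratio of the list. The peak over the window printed above (chromosome 3, 108090637 to 108091604) was centred 89.5 bp before the start site and covered all 300 bases of the promoter window, at a log2 ratio of 2.35. A second peak lay 172 bp from it, 985 bp after the start site, at 2.37, and another 32.5 kb into the 47.9 kb gene, at 3.21. Both start-site peaks were weak for this list, above only 12.4% and 13.4% of all peaks. CD47 and ICOSLG were the only 2 of the 9 genes with a promoter entry that had a peak midpoint within 1 kb of the start site, against 39.8% of protein-coding genes. A peak midpoint within 1 kb of the far end was found in 2 of the 9, PVR and NT5E, against 17.4%. Without regard to direction, 4 of the 10 genes had a peak within 1 kb of an end, against 41.9%.

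LGALS9 had 1 peak outside the gene (chromosome 17, 27628681 to 27629254), centred 2.22 kb upstream of its start site. Its log2 ratio of 2.99 was the median of the whole list, and nothing in the 18.4 kb of the gene was covered. LGALS9 has 2 close copies on chromosome 17, LGALS9B and LGALS9C, whose promoter windows share identical stretches of 63 and 123 bases with it. Each copy had 1 peak of its own, at 3.52 in LGALS9B and 2.10 in LGALS9C, and assignment of reads among the 3 genes is uncertain.

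NT5E had the most peaks, 13, over 45.7 kb of chromosome 6 (85450083 to 85495784). The strongest peak of all 10 genes lay 2.39 kb before its start site (85447441 to 85447941), at a log2 ratio of 5.49, above 97.0% of all peaks. This value was shared: 759 peaks of the list had exactly this ratio, 702 of them 500 bp wide like this one. It is 17 times the common step of the linear ratios, a whole multiple. A ratio over 1 input read has this form, but fractions were taken in lowest terms, so higher counts can give it too. The counts behind it are unknown. The other 12 peaks lay inside the gene, with log2 ratios between 2.44 and 3.84.

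From the start of NT5E onward, peaks were centred at 2.45 kb (log2 ratio 2.75), 6.66 kb (2.87), 14.4 kb (3.84), 19.4 kb (3.15), 20.6 kb (2.44) and 28.1 kb (2.68). Another 6 followed more closely, at 33.7 kb (3.35), 35.0 kb (3.13), 38.7 kb (2.78), 40.1 kb (2.61), 42.2 kb (3.42) and 45.1 kb (3.03). The last was centred 650.5 bp before the far end.

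Over all 40 peaks, the median log2 ratio was 2.90 (quartiles 2.57 and 3.31), against 2.99 (2.58 and 3.52) for the whole list, and 18 of the 40 were above the list median. By place, 29 lay inside the gene and over 1 kb from its ends, 3 within 1 kb of a start site, 2 within 1 kb of a far end, 3 upstream and 3 downstream. Their median width was 829.5 bp, against 804 bp for the list. Only 3 peaks, 1 each in NT5E, LGALS9 and NECTIN2, stood at whole multiples of the step, 7.5% against 12.4% of all peaks.

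Long genes collect more peaks, so each gene was set beside the 200 protein-coding genes nearest to it in length. PVR had more peaks than 174 of its 200 (9 against a median of 2), and only 17 of them were covered over a larger share. NT5E had more than 165 (13 against 3), with 36 covered over a larger share, and NECTIN2 more than 158 (12 against 3.5). CD47 lay in the middle, with more than 95 and fewer than 94. The single peaks of CD274 and ICOSLG were fewer than those of 110 and 119 of their like-length genes, and that of LGALS9 fewer than those of 117. For CD274 the share covered, 6.17%, was nonetheless larger than in 111 of the 200. Lacking any peak was shared by 49 of the 200 genes of like length for PDCD1LG2, by 49 for CD276 and by 42 for VTCN1.

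**Figure D2:**
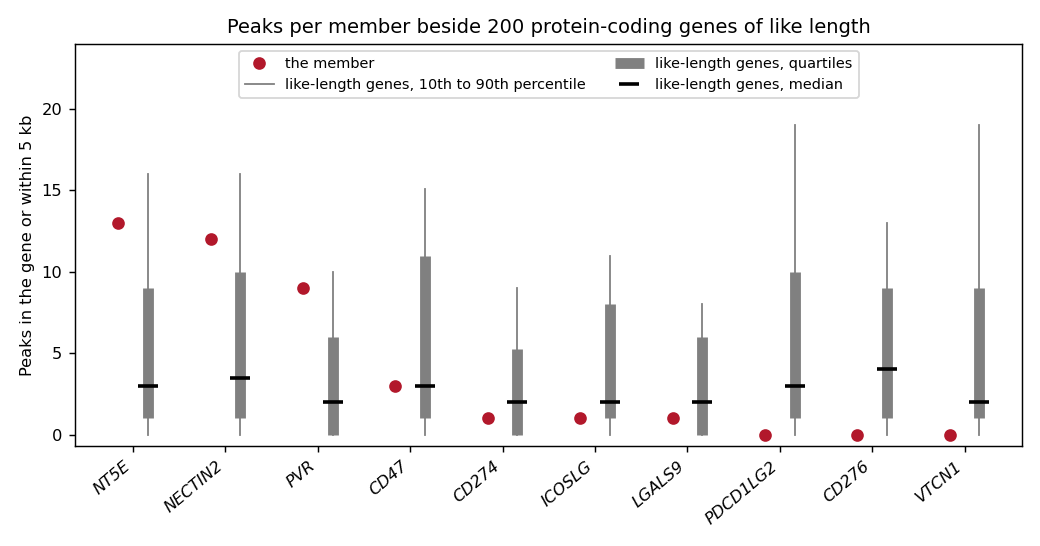
Number of peaks in each gene or within 5 kb (red points) beside the 200 protein-coding genes nearest in length (median, quartiles and 10th to 90th percentile). NT5E, NECTIN2 and PVR, with 13, 12 and 9 peaks, lie above the upper quartile of their sets, and the 3 genes without peaks lie at 0.

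Chromosomes differ in peak density, and among genes of the same chromosome the ends of the order were kept. Between them, CD47 moved from percentile 50.25 to 61.25, ICOSLG from 32.5 to 38.75 and LGALS9 from 34.5 to 21.25, while CD274 stayed near 36.5. Against the 40 nearest in length there, PVR had more peaks than 35, NT5E more than 33 and NECTIN2 more than 29, while PDCD1LG2 had fewer than 32 of its 40, CD276 fewer than 27 and VTCN1 fewer than 34. The surroundings differed more. In the 500 kb on each side, outside the gene and its 5 kb flanks, PVR had 101.01 peaks per Mb and NECTIN2 119.2, counted in partly the same sequence, against a median of 43.4 around protein-coding genes. NT5E had 24.2, fewer than that median.

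NT5E was denser than its surroundings, at 233.4 peaks per Mb of the gene with its flanks, 9.63 times the density around it. Of the 199 genes of like length with a peak in their surroundings, 8 had a higher ratio of own to surrounding density. CD274, with its single peak in sparse surroundings, had the second highest ratio, 6.60, exceeded by 19 of 198, and CD47 had 3.42, exceeded by 46 of 198. The corresponding ratio was 2.76 for PVR, exceeded by 58 of 196, and 1.90 for NECTIN2, exceeded by 85 of 197. Both other protein-coding genes within 500 kb of NT5E had peaks, 5 in SNX14, a sorting nexin gene, and 15 in SYNCRIP, which encodes an RNA-binding protein. ICOSLG was the opposite case, with 0.411 times the density of its surroundings, where TRAPPC10 alone had 27 peaks.

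**Figure D3:**
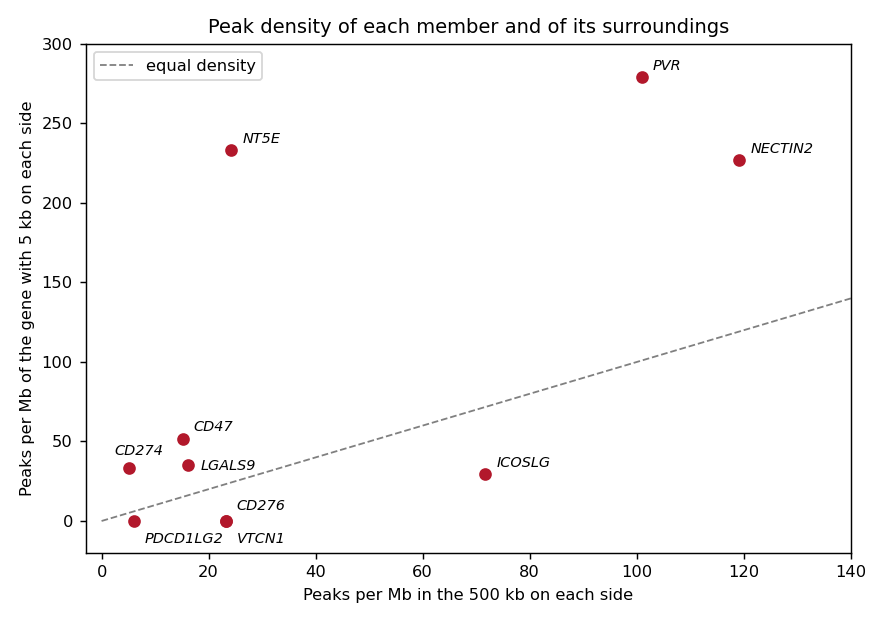
Peaks per Mb of each gene with 5 kb on each side (vertical axis) against peaks per Mb in the 500 kb on each side of it (horizontal axis), with a dashed line at equal density. NT5E lies at 233.4 over 24.2, PVR and NECTIN2 lie high on both axes, and the 3 genes without peaks lie at 0.

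The neighbourhood of CD274 and PDCD1LG2 was sparse. The 2.12 Mb from 1 Mb below CD274 to 1 Mb above PDCD1LG2 (chromosome 9, 4450542 to 6571282) held 11 peaks, 5.19 per Mb. Windows of this width centred on the protein-coding genes held a median of 94 peaks, and 68 on chromosome 9, and 8.12% of all such windows and 15.9% of those on chromosome 9 held fewer than 11. Of the 24 protein-coding genes of the stretch, 10 had a peak, 41.7% against 63.8% on chromosome 9. GLIS3 is among these 10, though its 4 peaks lie outside the stretch. Of the 7 long noncoding RNA genes 2 had one, INCR1 and LOC124902113, through the peaks also counted for CD274 and RCL1. The share of all long noncoding RNA genes with a peak was not counted. The CD274 peak stood alone, with 352.3 kb to the next peak below and 212.3 kb to the next above. Of all gaps between neighbouring peaks, whose median was 2.56 kb, 2.01% were longer than the one below and 3.35% longer than the one above, in which PDCD1LG2 lies.

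**Figure D4:**
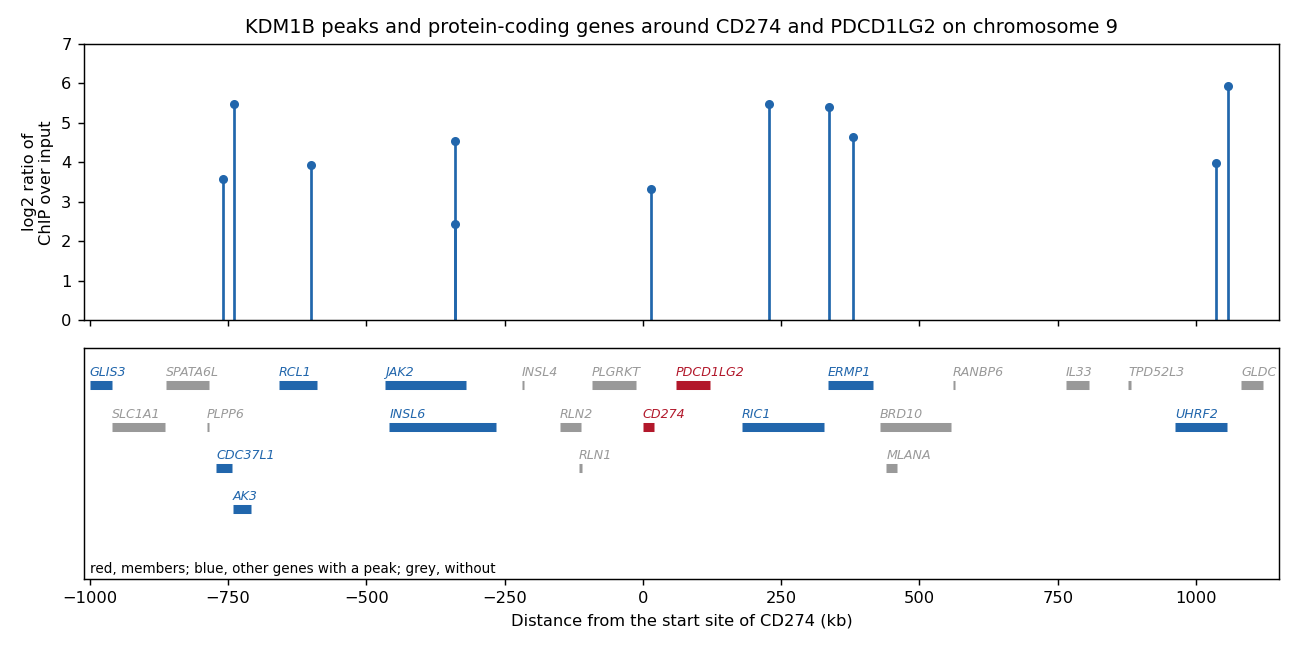
Upper panel, the 11 peaks of the 2.12 Mb stretch by their log2 ratio of ChIP over input; lower panel, its 24 protein-coding genes, both in kb from the CD274 start site. The CD274 peak, at 3.32, stands alone between peaks in JAK2 and RIC1, and the 4 peaks of GLIS3 lie outside the stretch.

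Below CD274, the nearest peaks lay in JAK2, the kinase that acts downstream of the interferon-gamma receptor, and equally in INSL6, which overlaps it and reaches closer to CD274. These 2 peaks had log2 ratios of 2.45 (5109856 to 5110636) and 4.53 (5111254 to 5112201). They overlap the annotated pseudogenes MTND5P14, a nuclear copy of a mitochondrial gene, and TCF3P1, and the placing of reads between copies was not tested. Over its 145.6 kb JAK2 had fewer peaks than 95 of 200 genes of like length and more than 80. INSL4, RLN2, RLN1 and PLGRKT, between JAK2 and CD274, had none.

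Farther below, RCL1 had 1 peak at 3.93 (4849903 to 4850582), and AK3 and CDC37L1 shared a peak at 5.49 (4710797 to 4711297), beside another in CDC37L1 at 3.59. SLC1A1, SPATA6L and PLPP6 had none. The RCL1 peak lies over the microRNA gene MIR101-2 (chr9:4850297-4850375, plus strand), whose mature sequences are shown, from RefSeq on GRCh38.p14, since they are the only annotated microRNA under a peak of the stretch. Capitals mark the seed, bases 2 to 8.
hsa-miR-101-2-5p: uCGGUUAUcaugguaccgaugc
hsa-miR-101-3p: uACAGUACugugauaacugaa

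Above PDCD1LG2, RIC1 had 1 peak at 5.49 (5678064 to 5678564), ERMP1 had 2 at 5.40 and 4.65, and UHRF2, which encodes a ubiquitin ligase related to UHRF1, had 2 at 3.99 and 5.93, the second just outside the gene and stronger than 99.7% of all peaks. Of the 11 peaks of the stretch, 5 were whole multiples of the step like the one upstream of NT5E: the peak shared by AK3 and CDC37L1, that of RIC1, the stronger of ERMP1 and both of UHRF2. Without whole multiples AK3, RIC1 and UHRF2 had no peak. The genes of the stretch with a peak, long noncoding RNA genes and GLIS3 included, then numbered 9 after 12. BRD10, MLANA, RANBP6, IL33, TPD52L3 and GLDC had none. None of the neighbours with a peak in the stretch ranked above the middle of its like-length set by number of peaks: the highest, JAK2 and INSL6, stood at the 46.3 percentile, CDC37L1 at 45.5 and ERMP1 at 42.3. GLIS3, of which only the upper end reaches into the stretch, stood at 68.0 with its 4 peaks outside it.

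Peaks were found at 4 of 14 genes of receptors of these ligands, at 11 of 21 other ligand and ectoenzyme genes and at 22 of 23 genes listed as regulators of CD274. All these lists were written with earlier results of these data known, so the shares may reflect how the genes were picked. Of the 14 receptor genes, such as PDCD1, TIGIT and HAVCR2, 4 had a peak in the gene or within 5 kb (28.6%, against 67.5% of protein-coding genes). CD80, which binds CD274 in cis, had 1 peak at 5.79, outside the gene, and CD96, a receptor of PVR, had 3 up to 5.49. The ratios 5.79 and 5.49 are whole multiples of the step. The adenosine receptor genes ADORA2B and ADORA2A had 15 peaks up to 4.03 and 1 at 3.77. The 11 other ligand and ectoenzyme genes (52.4%) were led, by their strongest peak, by ENTPD1, which acts upstream of NT5E in adenosine production, with 4 up to 4.79. CD86 followed with 2 up to 4.28, NECTIN4 with 2 up to 4.21, BTN2A2 with 1 at 3.84 and CEACAM1 with 3 up to 3.55. By number of peaks NECTIN1, with 9, and LGALS3, with 7 over 29.5% of its span, came first, both chosen after their values were seen.

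The 23 regulators were listed as acting on the level or signal of CD274, and the role of each, QPCT and QPCTL included, was not checked. These 23 genes had peaks in 95.7% of cases, against 67.5% of protein-coding genes, the exception being QPCT. Their median length was 45.0 kb, against 24.2 kb for all protein-coding genes, and long genes collect more peaks. The highest ratios were at IFNGR1 and JAK1 (5.72 each), then at IFNGR2, NFKB1 and DCUN1D1 (5.49 each). All these ratios are whole multiples of the step, and 759 peaks of the list shared the value 5.49. The only peak of IFNGR1 lay outside the gene. Relative to genes of like length, the median percentile by number of peaks was 73.0 for the regulators, 35.5 for the 10 genes, 32.8 for the other ligands and 17.6 for the receptors. The differences between these lists were not tested. Many of the receptors are genes of T cells. Expression in these cells was not measured, and any relation of the peaks to it was not tested.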

How the data were processed

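The data were 1 anti-FLAG ChIP library and 1 input library of MDA-MB-231 cells. The submitters' processing notes name Trim Galore 0.4.5, Bowtie2 2.2.9 and the build hg38. The sources used here name no peak caller or threshold and do not say how reads with several matches were treated. The deposited list holds 78536 peaks with their coordinates and the authors' log2 ratio between ChIP and input. It carries no counts, so depth and counting error are unknown. That it is a log2 ratio was settled from the values: the linear values of 99.9% of peaks, divided by a shared step of 2.64, were fractions of whole numbers (denominators up to 399, tolerance 1e-06). Coordinates are printed as deposited.

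Genes, start sites, strands and sequences came from RefSeq tables of GRCh38.p14, and all 58 further genes matched by symbol. A peak belonged to a gene when its midpoint lay in the gene or within 5 kb, and at an end within 1 kb. Percentiles split ties evenly. All members, genes within 1 Mb of CD274 and PDCD1LG2, and up to 5 further genes of each list by strongest peak were named. Members and lists were chosen with earlier results of these data known. Gene assignment was tested on simulated data. Python 3.11.15, numpy 2.4.6 and pandas 2.3.3 were used. Alternatives were other distances, any overlap of 1 bp, the stronger 50% of the list, joining peaks within 1 kb, removal of whole multiples of the step, and like-length sets of 100 and 400 genes, of 40 genes on the same chromosome, or ranked by share covered.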

Additional observations from a re-analysis of the deposited data

How the results depend on the processing

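The number of the 10 genes with a peak stayed at 6 or 7 under every alternative tried: LGALS9 lost its only peak with 1 kb on each side and without whole multiples. PDCD1LG2, CD276 and VTCN1 had no peak under any alternative tried, including 10 kb on each side, and CD274 kept 1. With the stronger 50% of the list, which keeps the LGALS9 peak as it equals the median, the 40 peaks became 19, the span covered was 3.93% after 8.92%, and PVR was left with 3 peaks, NECTIN2 with 5, NT5E with 7 and CD47 with 1. With peaks within 1 kb joined the 40 peaks became 28, with 6 in PVR, 8 in NECTIN2 and 9 in NT5E. With 1 kb on each side they numbered 34, with 9 in PVR, 8 in NECTIN2 and 12 in NT5E. The span covered was 9.76% with joined peaks and 8.71% without whole multiples. The background share of protein-coding genes with a peak, 67.5% (95% Clopper-Pearson interval 66.9 to 68.2%, counting error only), was 62.6% with 1 kb, 71.3% with 10 kb, 55.7% with the stronger peaks and 63.7% without whole multiples. Genes with a peak at an end numbered 2 at 500 bp, 6 at 5 kb and 3 with the stronger peaks, after 4. With the stronger peaks CD47 kept its gene-body peak and lost both at the start site. Without whole multiples the genes with a peak around CD274 and PDCD1LG2 numbered 9 after 12. Of the 58 further genes, 33 had a peak without whole multiples and 32 with the stronger peaks, after 37. With 1 kb on each side 35 had one, and with 10 kb 39. PVR and NT5E were above the 75 percentile of their like-length sets under all 4 alternative rankings, and NECTIN2 fell below it by share covered (percentile 74) and among genes of chromosome 19 (73.8). No paired analysis was possible because each group held 1 library. Without counts, peaks resting on few reads cannot be told apart from those resting on many.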
